A study of Mus musculus with 8 samples.

Results

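miR-181a and miR-181c are the members of the miR-181 family that were assayed in livers of mice exposed to carbon tetrachloride (CCl4), a hepatotoxin given repeatedly to produce liver fibrosis. They were picked out by assay name, with no threshold on a measured value, and are 2 of the 381 assays on each card. Total liver RNA from female C57B6 mice, 4 weeks old at the start, was run on TaqMan Array Rodent MicroRNA A Cards, which hold 1 quantitative PCR reaction for each miRNA. The groups were untreated liver and liver after 1, 4 or 8 weeks of intraperitoneal CCl4 in corn oil, with 2 cards per group and 8 cards in all. The labels give the dose as 1 mg/kg and the methods as 1 ml/kg, injected 2 times a week. Nothing in the labels tells if a group's 2 replicates came from separate mice, so the p-values measure only the spread between these samples, which may be technical. No vehicle-only group is among the 8 cards, so an effect of corn oil or injection cannot be told apart from that of CCl4.

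A miRNA guides a silencing complex to messenger RNAs that pair with its seed, the bases near its 5′ end, and the messages bound in this way are translated less and degraded. miRNAs that share a seed are grouped into a family because they can recognize overlapping sets of targets. The miR-181 family is best known from lymphoid cells, where miR-181a is abundant in the thymus and tunes the sensitivity of T cell receptor signaling. In liver, family members have been connected with TGF-β signaling, the main profibrotic cytokine pathway of this organ. In bulk liver RNA, fewer cells of a type and less RNA per cell cannot be told apart.

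The mature sequences of the family are shown because a single seed joins its members and only a few bases outside it separate them. They were taken from RefSeq on mouse build GRCm38.p6, run 5′ to 3′, and have the seed (bases 2 to 8) in capitals. The assay names give no arm, and both were matched by name to the 5p arm. The miR-181b and miR-181d sequences are given for comparison only, since neither was found by name among the assays analysed here.
miR-181a-5p: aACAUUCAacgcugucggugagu
miR-181c-5p: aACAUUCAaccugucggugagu
miR-181b-5p: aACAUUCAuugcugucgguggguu
miR-181d-5p: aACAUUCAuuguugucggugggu

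The seed was shared by all 4 sequences and by no other of the 1679 mature mouse names in the table. Counting from 1 at the 5′ end of miR-181a-5p, the 22 bases of miR-181c-5p were all identical to bases of miR-181a-5p, and position 11 of miR-181a-5p was absent. The sequence of miR-181d-5p differed from that of miR-181a-5p by A9U, C10U, C12U and A21G, and miR-181b-5p by A9U, C10U and A21G with 1 extra base. miR-181a is encoded at 2 loci, chr1:137966468-137966490 and at chr2:38852741-38852763, both on the plus strand. Each copy has a miR-181b gene as its neighbor. By coordinates, with strand not compared, the copy on chromosome 2 lies within Nr6a1, which encodes a nuclear receptor, and within its antisense transcript Nr6a1os. No gene in the table spans the copy on chromosome 1. miR-181c lies at chr8:84178924-84178945 on the minus strand, next to Mir181d, and no gene in the table spans it. Both copies of miR-181a give the same mature sequence, so the assay could not tell transcription of one locus from that of the other.

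Each reaction was read as a threshold cycle (Ct), the PCR cycle at which fluorescence crosses a threshold, so that a lower Ct means more template. In the untreated livers miR-181a crossed at Ct 31.20 and 31.48. The 1-week cards read 32.31 and 32.78, the 4-week cards 30.32 and 30.98, and the 8-week cards 31.29 and 31.07. miR-181a was thus a moderately late assay, 123rd from the earliest of the 168 assays with a Ct on all 8 cards. miR-181c crossed later, at 35.85 and 36.47 in untreated liver, 35.79 and 34.30 after 1 week, 33.97 and 34.78 after 4 weeks, and 33.96 and 35.27 after 8 weeks. Its mean Ct of 35.05 was the second latest of the 168, so its reactions may have started from very little template. Since the efficiencies of the assays are not known, the gap between their Ct values is not a ratio of abundance, and comparisons are made between cards.

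For comparison between cards, each Ct was subtracted from the card's own mean, taken across the 149 assays that stayed below Ct 35 on all 8 cards. The scale is log2, and a less negative value means more of the miRNA relative to the card as a whole. On this scale miR-181a stood at -2.85 and -3.49 in untreated liver, -3.54 and -4.18 after 1 week, -2.07 and -1.21 after 4 weeks, and -3.81 and -2.19 after 8 weeks. Both 1-week cards lay below both untreated cards, replicate 1 only just so. Both 4-week cards lay above the other 6 cards, though replicate 2 at 8 weeks came close to the lower of them. The 8-week cards lay on either side of the untreated pair. miR-181c stood at -7.50 and -8.48 in untreated liver, -7.02 and -5.70 after 1 week, -5.72 and -5.01 after 4 weeks, and -6.48 and -6.39 after 8 weeks. All 6 treated cards lay above both untreated cards for miR-181c, although replicate 1 at 1 week exceeded the higher untreated card by less than the 2 untreated cards differed from each other.

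**Figure D1:**
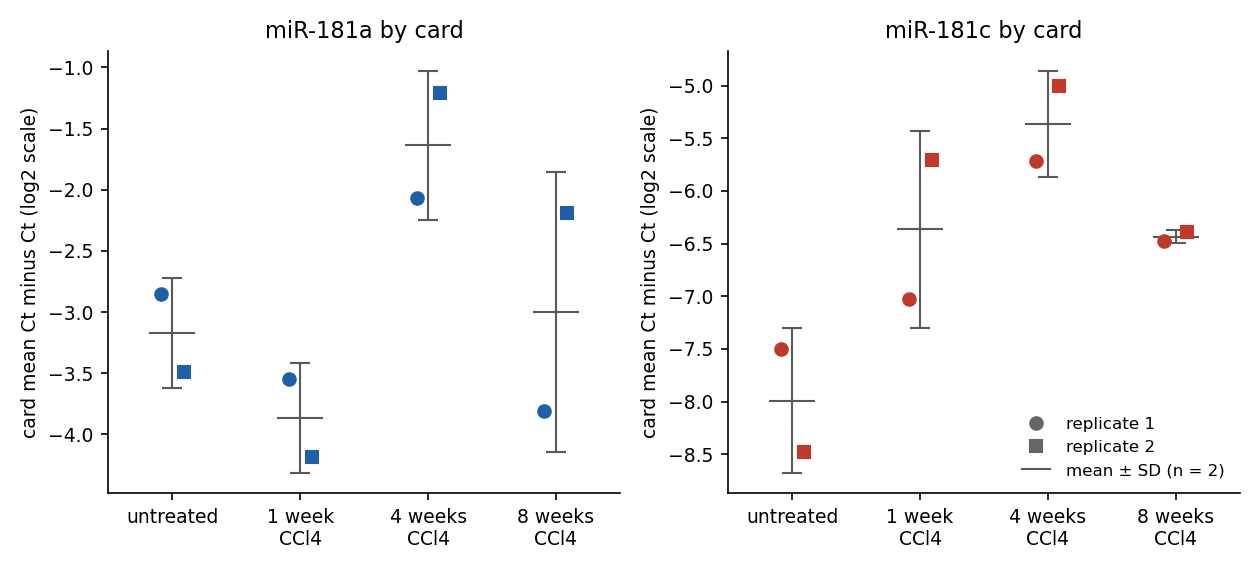
Level of each miRNA on every card (card mean Ct minus Ct, log2 scale), by group, with circles for replicate 1, squares for replicate 2, and horizontal bars and whiskers for the mean ± SD (n = 2). The 2 panels have separate vertical axes; miR-181a is lowest at 1 week and highest at 4 weeks by group mean and spreads from -3.81 to -2.19 at 8 weeks, whereas all treated cards of miR-181c sit above the untreated pair.

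Converted to linear levels with the mean of the untreated cards set to 1, miR-181c averaged 3.23 ± 1.96 (SD, n = 2) after 1 week, 6.03 ± 2.06 after 4 weeks and 2.79 ± 0.116 after 8 weeks, against an SD of 0.46 between the untreated cards. The size of these miR-181c folds is uncertain, because its mean Ct in untreated liver was 36.16, later than the limit of Ct 35. Whether that untreated level was above background was not tested. miR-181a averaged 0.619 ± 0.19 (SD, n = 2) after 1 week, 2.96 ± 1.21 after 4 weeks and 1.28 ± 0.917 after 8 weeks, with an untreated SD of 0.306. Ordered by level, miR-181a was highest at 4 weeks, followed by 8 weeks, untreated and 1 week. The order for miR-181c was 4 weeks, 1 week, 8 weeks and untreated. No neighboring groups in either order passed the test between them, as given with the comparisons that follow.

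The first question was how each miRNA changed from untreated liver at each duration of exposure. All 8 cards were fitted together with limma, with Benjamini-Hochberg adjustment over the assays tested and an adjusted p of 0.05 as the threshold. The standard filter, a mean Ct below 35, left 166 assays and kept miR-181a. It excluded miR-181c, by a narrow margin on the mean of all 8 cards (35.05). Its mean Ct was 36.16 in untreated liver and 35.045, 34.375 and 34.615 after 1, 4 and 8 weeks. Every limma p for miR-181c therefore comes from the same fit with no Ct limit, which held 168 assays. The differences of miR-181c from untreated liver rest on that late untreated Ct and are uncertain in size, like its folds.

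At 4 weeks miR-181c was higher than in untreated liver by 2.63 on the log2 scale (SE 0.529, 95% interval 1.39 to 3.87, limma adjusted p = 0.00975), and both of its cards exceeded both untreated cards. At that time 30.4% of the 168 assays were called without a Ct limit and 30.1% of the 166 under the filter, so a call there was common on these cards. Without replicate 2 of untreated liver the difference was 2.13 (limma adjusted p = 0.0615), and without replicate 2 at 4 weeks it was 2.27 (limma adjusted p = 0.0572), so the call rested on those cards. It was also lost with quantile normalization, at 2.07 (limma adjusted p = 0.0784), and with no normalization, at 1.79 (limma adjusted p = 0.20). For miR-181a the 4-week difference was 1.54 (SE 0.585, 95% interval 0.17 to 2.90), with an unadjusted p of 0.0324 and a limma adjusted p of 0.0835, and it did not pass the threshold. Leaving out either 8-week card gave the same size of difference with a limma adjusted p of 0.0368 without replicate 1 and 0.0367 without replicate 2. With any other card left out it ran from 1.10 to 1.97 and did not pass (limma adjusted p from 0.0746 to 0.331).

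At 1 week the estimates for the 2 members had opposite signs, except that both were below 0 with U6 alone (-3.07 and -0.75) and above 0 with snoRNA202 alone (0.70 and 3.02). miR-181c was higher by 1.63 (SE 0.529, 95% interval 0.39 to 2.86) with a limma adjusted p of 0.0505, just outside the threshold, where 32.1% of 168 assays were called. The pair of 1-week cards differed by 1.32 for miR-181c, and without replicate 1 at 1 week the difference from untreated was 2.31 (limma adjusted p = 0.0333), whereas without replicate 2 it was 0.97 (limma adjusted p = 0.25). miR-181a was lower by 0.69 on the log2 scale, a difference of -0.69 (SE 0.585, 95% interval -2.06 to 0.67, limma adjusted p = 0.362), where 32.5% of 166 assays were called. This estimate was about as large as the gap of 0.638 between the 2 cards at 1 week.

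At 8 weeks the 2 cards of miR-181c differed by only 0.085, and the difference from untreated liver was 1.56 (SE 0.529, 95% interval 0.32 to 2.79), with an unadjusted p of 0.0201 and a limma adjusted p of 0.140. Few assays were called at that time, 2.98% of 168 and 3.01% of 166. With U6 alone the 8-week difference of miR-181c passed (2.67, limma adjusted p = 0.00422), and 12 other settings gave 0.735 to 2.02 and no call. miR-181a stood 0.17 above untreated liver (SE 0.585, 95% interval -1.19 to 1.54, limma adjusted p = 0.871), and its 8-week cards were 1.61 apart. Without replicate 2 at 8 weeks the estimate for miR-181a turned to -0.63, and without replicate 2 of untreated liver to -0.16.

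**Figure D2:**
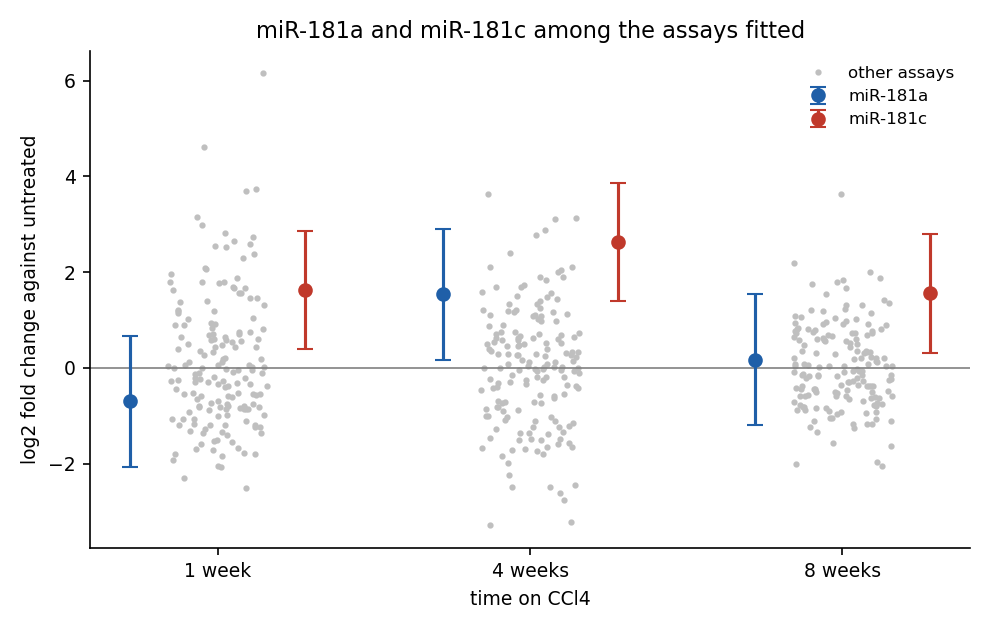
Difference from untreated liver (log2 scale, vertical axis) at 1, 4 and 8 weeks for miR-181a (blue) and miR-181c (red) with 95% intervals from limma, beside the estimates of the other assays with a Ct on all 8 cards (gray). The interval of miR-181c lies above 0 at each time before adjustment over the assays, at 1.63, 2.63 and 1.56, whereas that of miR-181a does so at 4 weeks, at 1.54.

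Next, the durations were compared with each other. miR-181a was 2.23 higher at 4 weeks than at 1 week (SE 0.585, 95% interval 0.86 to 3.59, limma adjusted p = 0.0218), with both 4-week cards above both 1-week cards. This was the comparison with the most calls, 47.0% of 166 assays, and 46.4% of 168 without the Ct limit. The call on miR-181a was lost when replicate 1 at 1 week was left out (2.50, limma adjusted p = 0.0522), when replicate 2 at 1 week was left out (1.88, limma adjusted p = 0.111), and when replicate 2 at 4 weeks was left out (1.87, limma adjusted p = 0.0955). It was also lost with snoRNA202 as the reference (1.23, limma adjusted p = 0.0617), with no normalization (1.90, limma adjusted p = 0.16) and with undetermined reactions set to Ct 40 (2.23, limma adjusted p = 0.0634). For miR-181c the difference between 4 weeks and 1 week was 1.00 (SE 0.529, 95% interval -0.23 to 2.24, limma adjusted p = 0.146), and it ran from 0.30 to 1.64 with 1 card left out. It passed with the endogenous controls (1.88) and with U6 alone (4.88), with limma adjusted p from 1.32e-10 to 0.0223. Under 11 other settings it ran from 0.005 to 1.14 and did not pass.

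Between 8 weeks and 1 week miR-181a differed by 0.87 (95% interval -0.50 to 2.23, limma adjusted p = 0.299), where 24.1% of 166 assays were called, and miR-181c by -0.07 (95% interval -1.30 to 1.17, limma adjusted p = 0.910), where 24.4% of 168 were called. These directions turned with the reference, to -0.315 for miR-181a with snoRNA202 alone and to between 0.22 and 3.42 for miR-181c under 5 scalings, and with U6 alone both passed (4.355 and 3.42, limma adjusted p = 1.16e-08 and 5.13e-06). With 1 card left out miR-181a ran from 0.06 to 1.67 and miR-181c from -0.77 to 0.58. From 4 to 8 weeks the estimates of both were below 0, with -1.36 for miR-181a (95% interval -2.73 to 0.00, limma adjusted p = 0.267) and -1.07 for miR-181c (95% interval -2.31 to 0.16, limma adjusted p = 0.268). Neither passed, and in that comparison 1.20% of 166 and 1.19% of 168 assays did. With 1 card left out miR-181a ran from -2.17 to -0.56 and miR-181c from -1.43 to -0.72. Under other settings they ran from -1.755 to -0.53 and from -1.465 to -0.24, with no call on either.

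The treated livers were then pooled, since 6 against 2 cards is the only comparison here in which an exact test can fall below 0.05. miR-181c averaged -6.05 ± 0.72 (SD, n = 6) on the treated and -7.99 ± 0.69 (SD, n = 2) on the untreated cards, a difference of 1.94. It was higher in 6 of 6 treated cards than in either untreated card, and the exact two-sided permutation test gave p = 0.0357, the smallest value that its 28 splits allow. Under 3 of the 8 other scalings the exact test on miR-181c did not pass, with a permutation p of 0.0714 with the endogenous controls, 0.321 with U6 alone and 0.214 with quantile normalization. miR-181a averaged -2.83 ± 1.18 (SD, n = 6) against -3.17 ± 0.45 (SD, n = 2), a difference of 0.34 with an exact permutation p of 0.714. Of its 6 treated cards, 3 lay above both untreated cards and 3 below both. With the 3 times weighted equally in limma, the difference for miR-181c was 1.94 (SE 0.432, 95% interval 0.93 to 2.95, adjusted p = 0.0175), where 29.2% of 168 assays were called. For miR-181a it was 0.34 (SE 0.478, 95% interval -0.78 to 1.45, limma adjusted p = 0.659), where 28.9% of 166 assays were called. The limma call on miR-181c was lost without replicate 2 of untreated liver (1.44, adjusted p = 0.134), with quantile normalization (1.27, adjusted p = 0.171), with no normalization (1.48, adjusted p = 0.371) and with undetermined reactions set to Ct 40 (1.94, adjusted p = 0.0534). The exact test on miR-181c did not pass with either untreated card left out, and it cannot fall below 0.05 there. Its difference was 1.45 without replicate 2 of untreated liver and 2.42 without replicate 1. Without replicate 2 of untreated liver the split by treatment was also no longer the single most extreme one.

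Whether the 2 members responded differently was tested on the difference between them within each card, Ct of miR-181a minus Ct of miR-181c, which no centring of the card can alter. It was -4.65 and -4.99 cycles in untreated liver, -3.48 and -1.52 after 1 week, -3.65 and -3.80 after 4 weeks, and -2.67 and -4.20 after 8 weeks. On all 6 treated cards the gap between the assays was narrower than on both untreated cards, by a mean of 2.32 cycles after 1 week, 1.10 after 4 weeks and 1.39 after 8 weeks. Averaged over the treated cards the shift was 1.60 cycles, with an exact two-sided permutation p of 0.0714, so a difference between the responses did not pass 0.05 in this test. Replicate 2 at 1 week was the farthest from the untreated cards, and without it the shift was 1.26 cycles with an exact permutation p of 0.0476, the smallest possible with 5 against 2 cards. With any other card left out the exact permutation p was 0.0952 to 0.286. These were 3 exact tests in all, and their p-values were not adjusted.

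**Figure D3:**
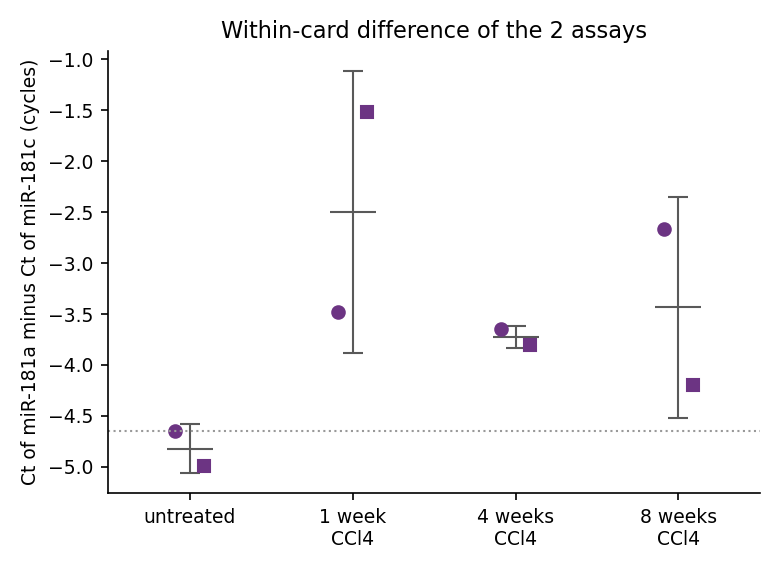
Ct of miR-181a minus Ct of miR-181c on each card (cycles), by group, with circles for replicate 1, squares for replicate 2, bars and whiskers for the mean ± SD (n = 2), and a dotted line at the higher untreated card. All 6 treated cards lie above the line at -4.65, from -4.20 to -1.52.

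The reproducibility of the 2 assays set the precision of these comparisons. Pooled over the groups, the SD between the cards of a group was 0.72 for miR-181a and 0.63 for miR-181c on the log2 scale, against a median of 0.39 over the 168 assays. They ranked 147th and 136th from the least variable. Among assays with a mean Ct below 30 the median SD was 0.30 (93 assays), from 30 to 33 it was 0.51 (56 assays) and above 33 it was 0.54 (19 assays), so both members spread more than the median assay of like Ct. For miR-181a the SD was mainly that of the 8-week pair, 1.14, and for miR-181c that of the 1-week pair, 0.94.

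Every scaling but quantile normalization moved both members by a common amount on each card, and with quantile normalization the shift between them was 1.16 in place of 1.60. The endogenous control RNAs of the card did not hold a constant level relative to the common assays. U6, a small nuclear RNA, differed from untreated liver by 2.38 at 1 week (limma adjusted p = 0.008) and by -1.50 at 4 weeks (limma adjusted p = 0.0417). snoRNA202, a small nucleolar RNA, differed by -1.39 at 1 week (limma adjusted p = 0.0139). snoRNA135 differed by -0.27, -0.03 and -0.06 at 1, 4 and 8 weeks and passed at none of these times. Relative to U6 alone, miR-181a was -3.07 at 1 week (limma adjusted p = 7.15e-05) and miR-181c -0.75, and relative to snoRNA202 alone they were 0.70 and 3.02. At 4 weeks the estimates of both members were above 0 under each of the 9 scalings tried, from 0.69 to 3.04 for miR-181a and from 1.79 to 4.13 for miR-181c.

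**Figure D4:**
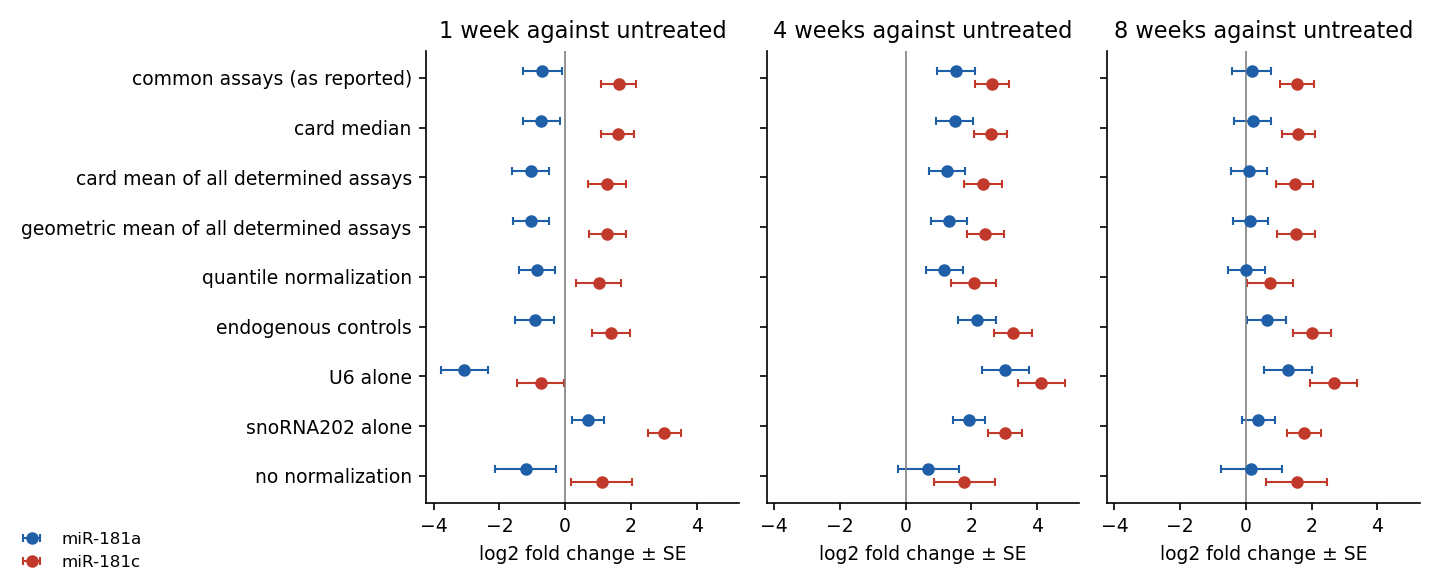
Difference from untreated liver (log2 fold change ± SE, horizontal axis) of miR-181a (blue) and miR-181c (red) at 1, 4 and 8 weeks under 9 ways of scaling the cards. With U6 alone the 1-week values are -3.07 and -0.75 and with snoRNA202 alone 0.70 and 3.02, while at 4 weeks every estimate is above 0.

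miRNAs enriched in particular cell types were read on the same cards, because miR-181a is abundant in lymphoid cells and whole liver was sampled. All 7 leukocyte-enriched assays (miR-223, both arms of miR-142, miR-150, miR-155, miR-146a and miR-146b) had a Ct on every card. At 1 week 6 of the 7 were higher and none lower, where 32.5% of all 166 assays were called (30 of them higher), with a median difference of 1.79 against -0.09 over all 166 assays. The largest was miR-146b at 3.73 (SE 0.482, limma adjusted p = 0.00334), followed by miR-223, a myeloid miRNA, at 2.06 (SE 0.31, limma adjusted p = 0.00411). miR-150 stood at 1.97 (limma adjusted p = 0.00513), but at 0.125 after 4 weeks and 0.02 after 8 weeks (limma adjusted p = 0.79 and 0.951). Conversely, miR-142-3p stood at -0.20 after 1 week (limma adjusted p = 0.647) and at 2.00 after 4 weeks (limma adjusted p = 0.00529). At 4 weeks 4 of 7 were higher and none lower, where 30.1% of all assays were called (22 of them higher), with a median of 1.195 against 0.03 over all assays, and at 8 weeks none passed, where 3.01% of all assays did, with a median of 0.62 against -0.04. Their summed level (log2), in which the earliest assays weigh most and which is used only between cards, ran from 4.71 to 5.46 in untreated liver, 6.996 to 7.11 after 1 week, 6.58 to 7.04 after 4 weeks and 5.60 to 6.11 after 8 weeks. The untreated cards were thus the lowest for this sum, as they were for miR-181c, whereas the lowest cards of miR-181a included replicate 2 at 1 week and replicate 1 at 8 weeks. The part of leukocyte RNA in the level of either member was not tested. With U6 alone as the reference the median of the list at 1 week was -0.59.

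The 5 hepatocyte-enriched assays, among them miR-122, the most characteristic hepatocyte miRNA, also had a Ct on every card. Of these, 1 was lower after 1 week, 4 were after 4 weeks and 1 was after 8 weeks, and none was higher, beside 32.5%, 30.1% and 3.01% of all assays called at these times, with medians of -0.79, -2.49 and -1.18. miR-122 itself passed at none of them, at -1.20 after 1 week (limma adjusted p = 0.0949), -0.23 after 4 weeks (limma adjusted p = 0.74) and 0.09 after 8 weeks (limma adjusted p = 0.921). The largest fall at 4 weeks was that of miR-802, at -3.29 (SE 0.289, limma adjusted p = 0.000921), and miR-192 followed at -2.76 (SE 0.397, limma adjusted p = 0.00455). The summed level of the 5 (log2) was 7.81 to 7.86 in untreated liver, 7.04 to 7.08 after 1 week, 6.28 to 6.45 after 4 weeks and 7.08 to 7.31 after 8 weeks, lowest at the time when both members of the miR-181 family were highest. With snoRNA202 alone the 1-week median was 0.60. A link between this fall and the levels of miR-181a and miR-181c was not tested.

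Of the 4 mesenchymal and stellate cell-enriched assays, none passed at 1 or 8 weeks and 2 were higher at 4 weeks, miR-214 at 1.69 (SE 0.353, limma adjusted p = 0.011) and miR-199a-3p at 1.09 (SE 0.341, limma adjusted p = 0.0457), both known from activated stellate cells, beside 32.5%, 30.1% and 3.01% of all assays called at 1, 4 and 8 weeks. At 4 weeks the other 2, miR-143 and miR-145, stood at -0.35 (limma adjusted p = 0.354) and 0.33 (limma adjusted p = 0.52). The medians were 0.15, 0.71 and 0.27. The 1-week median was below 0 under 5 of the 8 other scalings, from -2.23 with U6 alone to -0.09 with the endogenous controls, and the 4-week median was -0.13 with no normalization. Both arms of miR-126, an endothelial miRNA, were lower at 4 weeks, at -1.83 (3p) and -1.65 (5p). At 1 week their estimates were above 0, at 0.64 and 0.12, and did not pass (limma adjusted p = 0.256 and 0.87). Their 8-week estimates were -0.92 and -0.80 (limma adjusted p = 0.201 and 0.275), and the difference between 8 and 4 weeks, called for 1.20% of all assays, passed for neither. Both arms were lower at 4 weeks than at 1 week (-2.47 and -1.77, limma adjusted p = 0.00598 and 0.0202), where 47.0% of assays were called. Between 8 weeks and 1 week, with 24.1% called, only the 3p arm passed (-1.56, limma adjusted p = 0.0332), and the 5p arm stood at -0.92 (limma adjusted p = 0.166). The 2 erythroid assays, miR-451 and miR-486, did not pass against untreated liver at 1, 4 or 8 weeks, beside 32.5%, 30.1% and 3.01% of all assays. Their medians were -0.34, 0.18 and 0.39. Between durations, miR-451 was higher than at 1 week both at 4 weeks (1.40, limma adjusted p = 0.0242) and at 8 weeks (1.595, limma adjusted p = 0.032). In these comparisons 47.0% and 24.1% of assays were called, and miR-486 passed in neither (-0.36 and -0.145, limma adjusted p = 0.352 and 0.701).

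Finally, the assays whose levels ran most like those of each member were listed by Pearson r over the 8 cards. The cards share the centring and the group differences, so r describes these cards and carries no test. The members themselves had r = 0.461 with each other (Spearman rho 0.286). The 5 assays most like miR-181a were miR-99b (r = 0.906), miR-685 (0.896), miR-125b-5p (0.891), miR-197 (0.888) and miR-328 (0.886). The level of miR-99b was -0.24 and -0.98 in untreated liver, -1.06 and -0.75 after 1 week, 0.40 and 1.18 after 4 weeks, and -0.30 and 0.67 after 8 weeks, so that it too was highest at 4 weeks. All 5 had estimates below 0 at 1 week, from -1.70 to -0.29, and above 0 at 4 weeks, from 0.71 to 3.64. Only miR-685 among them passed against untreated liver, at 4 weeks (3.64, limma adjusted p = 0.00529), when 30.1% of all assays did.

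The 5 assays most like miR-181c were miR-450a-5p (r = 0.945), miR-15b (0.934), miR-132 (0.920), the rat assay rno-miR-351 (0.873) and miR-142-5p (0.872), the last of which belongs to the leukocyte-enriched list. The level of miR-450a-5p was -4.43 and -5.43 in untreated liver, -2.67 and -1.90 after 1 week, -2.51 and -1.09 after 4 weeks, and -3.41 and -2.68 after 8 weeks, with all 6 treated cards above both untreated cards. All 5 had estimates above 0 at each time, from 0.61 to 2.65 after 1 week, 1.10 to 3.14 after 4 weeks and 0.84 to 1.89 after 8 weeks. Of the 5, 3 passed at 1 week, 4 at 4 weeks and none at 8 weeks, beside 32.5%, 30.1% and 3.01% of all assays, with miR-450a-5p at 3.14 (limma adjusted p = 0.00758) and miR-15b at 2.40 (limma adjusted p = 0.00868) at 4 weeks, and they were picked for their likeness to miR-181c on these same cards. By Spearman rho instead, 3 of the 5 assays stayed among the most like miR-181a and 4 of the 5 among those most like miR-181c.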

How the data were processed

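The authors isolated total liver RNA, reverse transcribed it with Megaplex primers without pre-amplification. The deposited values are raw Ct values per assay and card, unit cycles, not normalized and not pooled; the software that set the threshold is not given in the sources used here. The authors also deposited fold changes of their own, which were not used. The series text gives 4, 3 and 2 treated mice, whereas the labels give 2 replicates per group. No depth exists for such data, and the number of cards limits precision.

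Cards had 193 to 235 assays with a Ct, and 168 assays had one on all 8. Card mean Ct ran from 27.5 to 29.8. Replicate 2 at 4 weeks had the fewest assays with a Ct (193) and the latest mean (29.8), and it held the highest centred level of both members. Values were centred on 149 common assays and fitted with limma 3.58.1 in R 4.3.3 (4 groups, prior degrees of freedom 3.47). Exact tests were computed by listing the splits of the cards in Python 3.11.15 with numpy 2.4.6. The labels do not say that a replicate number marks a shared batch, so no block was used. Deviations of same-numbered cards correlated in no single direction (r from -0.497 to 0.434). The sign of each r depends on how the 2 replicates of a group were numbered, so the mixed signs do not settle whether cards shared a batch.

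The members were named by assay, and they, the lists and the tests were chosen with earlier results of these data known. Assays were named as members, control RNAs, the 5 most like each member, and the cell type lists with the 2 largest changes of each. Alternatives were 8 other scalings, other Ct limits, undetermined values at Ct 40, a block for the replicate number, a trend in eBayes, separate fits for each comparison, a threshold of 0.10, and leaving out each card.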

Additional observations from a re-analysis of the deposited data

Results flagged for a closer look

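The level of miR-181a differed between durations of exposure, which the fit tested directly. It was 2.23 higher at 4 weeks than at 1 week on the log2 scale (limma adjusted p = 0.0218), in a comparison in which 47.0% of assays were called, from a difference against untreated liver of -0.69 at 1 week and 1.54 at 4 weeks. The call was lost with any of 3 cards left out (limma adjusted p from 0.0522 to 0.111) and under 3 other settings (limma adjusted p from 0.0617 to 0.16). In the same comparison miR-181c differed by 1.00 (limma adjusted p = 0.146).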

How the results depend on the processing

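Over the 2 members, 303 of 352 alternative values kept their direction and side of the threshold, 17 newly passed it in the same direction, 19 no longer passed and 13 changed sign, 1 of which passed with its new sign; the cause was not tested. Combinations with no Ct limit for miR-181c, exact tests under other scalings and the crossed pairing were added after seeing the data. For miR-181a, U6 alone gave -3.07 at 1 week, 3.04 at 4 weeks and 4.355 between 8 weeks and 1 week, and snoRNA202 alone gave 0.70, 1.93, -0.315 and, between 4 weeks and 1 week, 1.23, in the same order. At 4 weeks the endogenous controls gave 2.18 and a mean Ct below 32 gave 1.70, and an adjusted p of 0.10 would call 1.54. The 4-week difference of miR-181a was called under each of these and with U6 alone and snoRNA202 alone. Between 4 weeks and 1 week no normalization gave 1.90 and Ct 40 gave 2.23; over all times no normalization gave -0.12 in limma and in the exact test. For miR-181c at 1 week the card median gave 1.59 and snoRNA202 3.02, both of which passed, U6 gave -0.75, and an adjusted p of 0.10 would call 1.63. At 4 weeks the call was lost with quantile normalization (2.07) and none (1.79), and over all times with quantile (1.27), none (1.48) and Ct 40 (1.94). At 8 weeks U6 gave 2.67 and passed (limma adjusted p = 0.00422), and 12 other settings gave 0.735 to 2.02 and did not pass. Between 4 weeks and 1 week the controls gave 1.88 and U6 4.88, and both passed (limma adjusted p from 1.32e-10 to 0.0223). In that comparison 11 other settings gave 0.005 to 1.14 and did not pass. Between 8 weeks and 1 week centring on the mean of every determined assay gave 0.22, on its geometric mean 0.24, the controls 0.63, U6 3.42 (limma adjusted p = 5.13e-06) and none 0.43. The exact test on miR-181c gave 2.23 (p = 0.0714) with the controls, 2.02 (p = 0.321) with U6 and 1.27 (p = 0.214) with quantile normalization. With each card left out in turn, miR-181a ranged from -1.03 to -0.37 at 1 week, 1.10 to 1.97 at 4 weeks, -0.63 to 0.98 at 8 weeks, 0.01 to 0.61 over all times, 1.87 to 2.66 between 4 weeks and 1 week, 0.06 to 1.67 between 8 weeks and 1 week and -2.17 to -0.56 between 8 and 4 weeks. miR-181c ranged from 0.97 to 2.31 after 1 week, 2.13 to 3.09 after 4 weeks, 1.44 to 2.38 over all times (1.45 to 2.42 in the exact test) and -0.77 to 0.58 between 8 weeks and 1 week, and the within-card difference from 1.26 to 1.80. With the replicate number as a block, limma adjusted p was 0.0142 for miR-181c at 4 weeks and 0.0271 for miR-181a between 4 weeks and 1 week, and no call on either member changed. Over all assays the block gave 50, 49 and 4 calls at 1, 4 and 8 weeks, and 0 between 8 and 4 weeks (25 at an unadjusted p under 0.05) in place of 2. With the numbers of the untreated pair crossed it gave 74, 65 and 17. This crossed block was not summarized for the 2 members and is not among the 352 values. Over all settings calls ran from 5 to 126 after 1 week, 10 to 82 after 4 weeks and 0 to 40 after 8 weeks, where the fit to only the groups compared gave 0 (32 at an unadjusted p under 0.05). With 1 card left out they fell to as few as 13, 22 and 0 at 1, 4 and 8 weeks (the last without either 8-week card, with 45 and 26 at an unadjusted p under 0.05), 6 over all times, 31 between 4 weeks and 1 week and 4 between 8 weeks and 1 week. At 4 weeks 22 were higher and 28 lower, 80 higher and 2 lower with U6 alone and 45 and 11 with the endogenous controls. Calls at 1 week were 30 higher and 24 lower, and 2 and 124 with U6 alone, 81 and 0 with snoRNA202 alone, and 18 and 33 when cards were centred on every determined assay, which moved the median of all assays from -0.09 to -0.45.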
